A study of Mus musculus with 12 samples.

Results

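Amino acid transporters of the SLC1, SLC3, SLC6, SLC7, SLC36, SLC38 and SLC43 families were examined in M1-activated bone marrow-derived macrophages (BM-Mɸs). The members are the genes whose symbol starts with Slc1a, Slc3a, Slc6a, Slc7a, Slc36a, Slc38a or Slc43a and a digit, without Slc7a2 and Slc7a11, which the rule leaves out. This gave 62 of the 22243 genes in the table, and 20 of the 62 had a mean of at least 1 TPM, a unit that divides reads by transcript length and scales every library to the same total, over the 12 libraries, the level below which no test was made. The rule goes by symbol, so it also takes in Slc7a6os, a gene named for lying beside Slc7a6 on the opposite strand and not known as a transporter, the monoamine carriers of the SLC6 family, and Slc43a3, a carrier of purine nucleobases.

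The cultures came from 6 ErbB4myeKO mice, which carry floxed ErbB4 and LysMCre, and from 6 ErbB4FF mice, which carry floxed ErbB4 and no Cre. Each litter numbered 1 to 6 gave 1 mouse of each genotype. The paper names C57Bl/6 mice among those it used and does not state the background of this cross. All 12 cultures were grown from marrow in M-CSF from CMG14-12 conditioned media, then given IFN-γ at 100 U/mL for 16 h and LPS at 100 ng/mL for 6 h, so that no unstimulated culture is among them and age and sex are not on the labels. LysMCre is driven by the lysozyme M gene, which is active in neutrophils and other myeloid cells as well as in macrophages, and each library is 1 culture of 1 mouse. The question addressed is whether expression of these genes differed between littermates of the 2 genotypes.

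Amino acid transporters carry amino acids across the plasma membrane and out of lysosomes. Several SLC7 proteins are light chains that reach the cell surface only when joined to a heavy chain, Slc3a2 (CD98), and they exchange one amino acid for another, whereas SLC38 proteins take up glutamine and other small neutral amino acids with sodium. Classically activated macrophages draw on arginine for nitric oxide synthesis and on glutamine for energy and biosynthesis, and leucine, arginine and glutamine are sensed by mTORC1 at the lysosome. When amino acids run short, the transcription factor ATF4 raises expression of several of these carriers.

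The 12 libraries gave TPM for principal transcripts only, which summed to between 59.0% and 74.7% of all TPM, with both libraries of litter 5 above all others at 71.4% and 74.7%. Erbb4 had 0.583 ± 0.242 TPM (SD, n = 6) in libraries labelled ErbB4myeKO and 0.450 ± 0.132 TPM (n = 6) in those labelled ErbB4FF, higher with the ErbB4myeKO label in 4 of 6 litters (exact two-sided permutation p = 0.25). This value covers a whole transcript and not the floxed part, so it does not check the labels, and libraries are named by their label. Lyz2, the lysozyme M gene into which LysMCre is inserted, does bear on them. In litters 1 to 5 it was lower in the library labelled ErbB4myeKO, with log2 ratios of -0.97, -0.83, -1.15, -1.20 and -0.81. In litter 6 it was higher, with 7997 TPM in the library labelled ErbB4myeKO and 2964 TPM in that labelled ErbB4FF, a log2 ratio of 1.43. Litter 6 thus goes against the other 5 litters in this gene. Of the marker genes counted below that passed 1 TPM, Itgam also turned, to 0.24 in litter 6 after values below 0 in litters 1 to 5. Il12b (0.80), Tnf (0.10), Mertk (0.47), Camp (0.15), Cxcl10 (-0.39) and Fcgr1 (-0.70) kept in litter 6 the sign of litters 1 to 5. The others were mixed within litters 1 to 5. Whether the labels of the 2 libraries of litter 6 were exchanged was not tested, and an exchange would turn the sign of every ratio given for litter 6. The groups were kept as labelled, and the main results are given with and without litter 6. Of the 8 macrophage markers fixed for the check, all 8 passed 1 TPM, and their sum was between 7179 and 15964 TPM over the 12 libraries. The 10 markers of M1 activation all passed in their mean as well, although Nos2 was listed at 0 in 3 libraries, those of litter 5 and the litter 3 library labelled ErbB4myeKO, and had 115 and 139 TPM in litter 4. In litters 2 and 6 Nos2 had 0.0417 and 0.0109 TPM with the ErbB4myeKO label and 45.2 and 55.1 TPM with the ErbB4FF label. In litter 1 it had 10.1 TPM with the ErbB4myeKO label and 0.220 TPM with the ErbB4FF label. Of the markers of other cells, 4 of 9 neutrophil genes passed (sum 39.7 to 371 TPM with the ErbB4myeKO label and 40.1 to 185 TPM with the ErbB4FF label, with the defining gene Ly6g under 1 TPM), 3 of 7 dendritic cell genes passed (44.4 to 122 and 30.4 to 93.8 TPM), and 4 of 6 fibroblast genes passed (2.78 to 92.9 TPM with the ErbB4myeKO label, 89.3 TPM at most with the ErbB4FF label). None of the 9 lymphocyte, 7 erythroid or 6 mast cell and basophil genes passed, and Siglech, Cd209a, Alas2, Ms4a2 and Fcer1a were listed at 0 in every library. These sums overlapped between the genotypes, whereas single markers had an unadjusted limma p under 0.05, lower with the ErbB4myeKO label for Fcgr1 (-0.86 on the log2 scale) and Cxcl10 (-0.18) and higher for Il12b (1.19), Camp (0.45) and Xcr1 (0.63), none past the adjusted threshold. Whether these markers have a part in the transporter values was not tested. In bulk RNA, fewer cells of a type and less RNA per cell cannot be told apart.

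A few carriers made up most of the transporter RNA. The members together held between 286 and 586 TPM per library, and Slc6a6, Slc3a2 and Slc7a8 held between 60.9% and 78.9% of that sum (median 74.6%). Slc6a6, the taurine transporter (chr6:91684053-91759066, + strand, GRCm38), had 95.8, 133 and 180 TPM as the lowest, median and highest library labelled ErbB4myeKO and 83.0, 152 and 221 TPM in those labelled ErbB4FF. It was the highest member in 8 libraries and the second in the other 4. Slc3a2, the CD98 heavy chain (chr19:8706882-8723369, - strand), had 82.3, 129 and 206 TPM against 47.0, 126 and 178 TPM. Slc7a8, the light chain LAT2 for small and large neutral amino acids (chr14:54722209-54781946, - strand), had 47.3, 82.2 and 104 TPM against 44.2, 77.6 and 116 TPM and held rank 3 in 11 of 12 libraries. In each of these 3 genes the groups overlapped, and the lowest ErbB4FF library was that of litter 5.

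**Figure D1:**
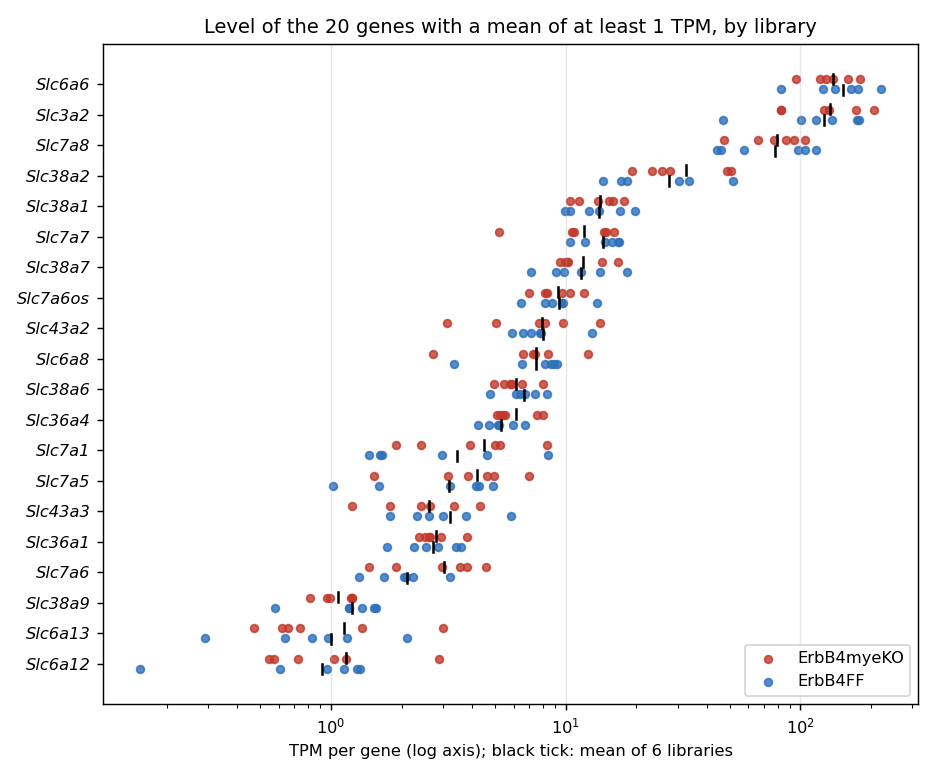
TPM per gene on a log axis for the 20 members with a mean of at least 1 TPM, with 1 point per library (red, 6 labelled ErbB4myeKO, and blue, 6 labelled ErbB4FF) and a black tick at the mean of each group. Slc6a6, Slc3a2 and Slc7a8 have the highest means, although the highest points of Slc38a2 (51.5 TPM at most) pass the lowest of Slc7a8 and Slc3a2, and red and blue points overlap in all 20 genes.

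Below these 3 the order had a step and then many near ties. Slc7a8 was above Slc38a2, and Slc38a2 above Slc38a1, in 12 of 12 libraries. Slc6a6 was above Slc3a2 in only 8 of 12, and Slc38a1 was above Slc7a7 in 6 of 12, so neighbours of these kinds did not separate beyond their spread. From Slc7a7 through Slc38a7, Slc7a6os, Slc43a2, Slc6a8 and Slc38a6 down to Slc36a4, each gene was above the next in between 6 and 11 of 12 libraries. The lowest of those tested were Slc38a9, Slc6a13 and Slc6a12, with group medians between 0.698 and 1.28 TPM.

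No member differed between the genotypes past the adjusted threshold. In the limma fit with litter as a block, 0 of 20 members and 0 of 8780 genes (0%) had a Benjamini-Hochberg adjusted p under 0.05, and the smallest adjusted p among the members was 0.603. At an unadjusted p under 0.05 there were 2 of 20 members, Slc38a2 and Slc7a1, both higher in libraries labelled ErbB4myeKO, beside 8.21% of all genes (3.83% higher and 4.38% lower). In all 6 litters as labelled the same direction was held by 1 of 20 members, Slc36a4, beside 4.82% of all genes. It was higher in each litter (2.51% of all genes), and no member was lower in each (2.31% of all genes). The fitted difference was above 0 in 12 members and below 0 in 8, against 49.8% of all genes above 0. It reached 0.25 in size on the log2 scale in 6 members (26.4% of all genes). The median difference was 0.05 (log2 of TPM + 0.5, ErbB4myeKO minus ErbB4FF) in the members and -0.00068 in all genes, and the values lay between -0.32 for Slc7a7 and 0.44 for Slc7a1. Without litter 6, 0 of 20 members and 0 of 8780 genes (0%) passed the adjusted threshold (smallest adjusted p among the members 0.769), and 0 of 20 members had an unadjusted limma p under 0.05, beside 5.84% of all genes. In litters 1 to 5 alone, Slc36a4 was again the 1 member of 20 with the same direction in each (7.95% of all genes, 3.9% higher and 4.05% lower), and the fit without litter 6 was above 0 in 13 of 20 members (48.6% of all genes). These shares lay near the background and give no result particular to the transporters. All 20 intervals at the 95% level lay within a 2-fold change in either direction, as did those of 83.7% of all genes, and 12 of the 20 lay within 1.5-fold. The sum of the members' TPM differed by a mean log2 ratio of 0.02 ± 0.22 (SD over 6 litters, exact permutation p = 0.688).

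**Figure D2:**
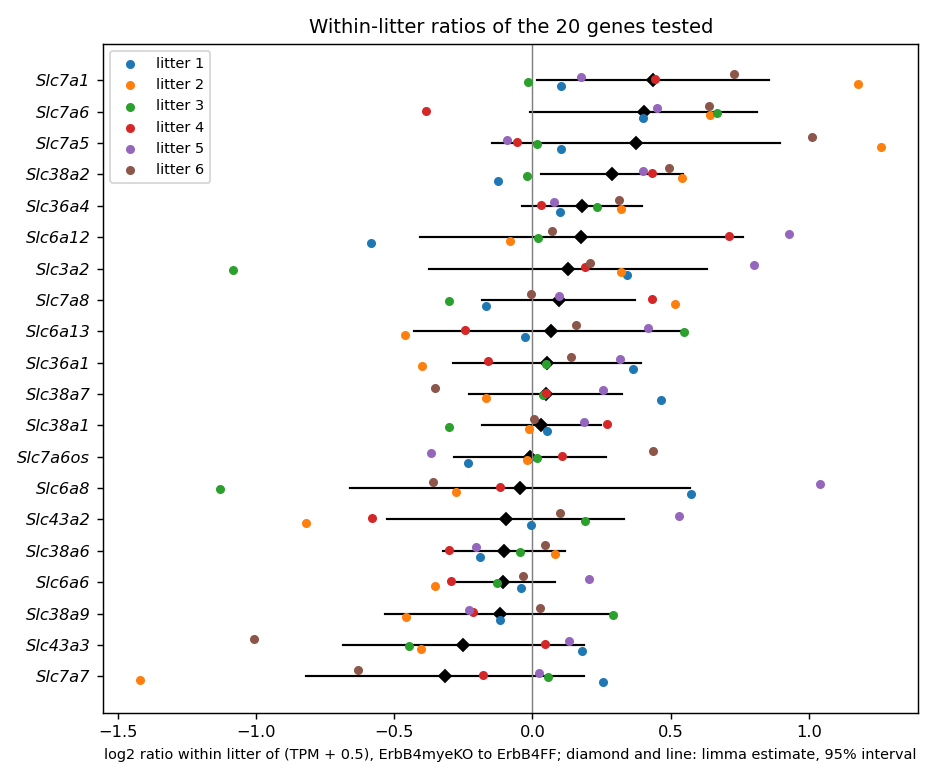
Log2 ratio of TPM + 0.5 between littermates, ErbB4myeKO to ErbB4FF, for the 20 members in order of the fitted difference, with 1 coloured point per litter and a black diamond and line for the limma estimate and its 95% interval. The estimates run from -0.32 (Slc7a7) to 0.44 (Slc7a1), and the intervals of Slc7a1 and Slc38a2 alone leave out 0.

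Among the sodium-coupled SLC38 carriers of system A, which take up alanine, serine and glutamine, Slc38a2 (SNAT2) had the smallest limma p of all members, although Slc36a4, Slc7a1 and Slc7a6 had smaller exact permutation p-values. Its values were 19.2, 26.8 and 50.8 TPM (lowest, median and highest) in libraries labelled ErbB4myeKO and 14.5, 24.3 and 51.5 TPM in those labelled ErbB4FF, with means of 32.7 ± 13.6 and 27.5 ± 14.0 TPM (SD, n = 6 each). The groups overlapped, and both libraries of litter 3 were the highest of their group. Within litters 1 to 6 the log2 ratio was -0.12, 0.54, -0.02, 0.43, 0.40 and 0.50, so that 4 litters were higher by about the same amount and litters 1 and 3 were close to 0. The fitted difference was 0.29 (SE 0.11, 95% interval 0.03 to 0.54), a 1.22-fold difference, with a limma p of 0.0327 before and 0.603 after adjustment, and an exact permutation p of 0.125 over the swaps within litters. With the summed TPM of 4 Y-linked genes as a covariate, in place of the sex that the labels do not give, the difference was 0.13, and without litter 6 it was 0.25. Slc38a1 (SNAT1), the other system A carrier expressed, had 10.5, 14.5 and 17.7 TPM against 9.92, 13.2 and 19.7 TPM and a difference of 0.03 (95% interval -0.18 to 0.25). Slc38a2 was between 1.37 and 3.56 times as high as Slc38a1 in the 12 libraries. The third system A gene, Slc38a4, reached at most 0.120 TPM, and the system N genes Slc38a3 and Slc38a5 were listed at 0 in all 12 libraries.

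Both genes with an unadjusted p under 0.05 and the gene that was higher in all 6 litters are shown by the 300 bases around their start, 250 before and 50 after, from RefSeq (GRCm38.p6), to set their start regions side by side. The windows are chr15:96699679-96699978 (- strand) for Slc38a2, chr5:148399855-148400154 (- strand) for Slc7a1 and chr9:15709488-15709787 (+ strand) for Slc36a4. Each is printed 5′ to 3′ on the gene's strand, and the capitals mark the letters GGGCGG, the core of a GC box, or CCGCCC, the same letters on the other strand.
Slc38a2: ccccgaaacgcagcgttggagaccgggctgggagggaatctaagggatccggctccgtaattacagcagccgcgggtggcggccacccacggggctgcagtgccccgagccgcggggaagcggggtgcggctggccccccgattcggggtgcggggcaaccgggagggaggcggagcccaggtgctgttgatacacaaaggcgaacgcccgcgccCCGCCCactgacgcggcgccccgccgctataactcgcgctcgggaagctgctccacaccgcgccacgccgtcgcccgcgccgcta
Slc7a1: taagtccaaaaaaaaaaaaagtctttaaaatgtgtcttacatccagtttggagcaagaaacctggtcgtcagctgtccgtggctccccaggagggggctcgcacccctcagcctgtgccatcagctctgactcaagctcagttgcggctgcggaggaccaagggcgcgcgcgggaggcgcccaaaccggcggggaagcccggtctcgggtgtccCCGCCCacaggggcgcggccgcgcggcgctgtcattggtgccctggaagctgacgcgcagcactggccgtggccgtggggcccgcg
Slc36a4: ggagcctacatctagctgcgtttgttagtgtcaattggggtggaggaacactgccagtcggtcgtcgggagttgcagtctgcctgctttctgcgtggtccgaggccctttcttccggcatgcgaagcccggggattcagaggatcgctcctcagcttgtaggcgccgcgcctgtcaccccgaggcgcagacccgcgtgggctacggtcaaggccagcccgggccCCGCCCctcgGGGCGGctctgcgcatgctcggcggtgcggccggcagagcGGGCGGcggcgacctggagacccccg
GGGCGG was found once in the window of Slc38a2, once in that of Slc7a1 and 3 times in that of Slc36a4, on either strand. It stood in 15 of 28 windows of the 15 tested members with a window, and in 35.7% of all 32851 windows of that length. The latter are not limited to genes that passed the filter, as these members did, so the 2 shares are not like for like. The letters TGATGNAA, the core of the ATF4 composite element, were searched on both strands too and do not overlap GGGCGG in these windows. They were in none of the 3 windows, in 2 of the 28 windows of the members, both of Slc7a7, and in 3.97% of all windows. Only these 300 bases were searched, so whether such letters stand elsewhere in these genes was not tested. The windows were GC-rich, at 73%, 65% and 69%. No window was at hand for Slc6a6, Slc6a8, Slc7a5, Slc43a3 and Slc38a1.

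Of the carriers of cationic amino acids, Slc7a1 and Slc7a6 were higher on average with the ErbB4myeKO label and Slc7a7 was lower. Slc7a1 (CAT1, chr5:148327410-148399904, - strand) brings arginine, lysine and ornithine into the cell. Its values were 1.89, 4.46 and 8.34 TPM against 1.45, 2.30 and 8.44 TPM, with means of 4.47 ± 2.33 and 3.46 ± 2.73 TPM. Litter 3 again held the highest library of both groups, and the groups overlapped over nearly the whole range. The ratio within litters 1 to 6 was 0.10, 1.18, -0.02, 0.44, 0.18 and 0.73 on the log2 scale, above 0 in 5 of 6 litters and widest in litter 2. The fitted difference was 0.44 (SE 0.18, 95% interval 0.02 to 0.85), 1.35-fold, with a limma p of 0.0436 before and 0.603 after adjustment and an exact permutation p of 0.0625. It was 0.28 with the Y-linked covariate, 0.29 without litter 2 and 0.38 without litter 6.

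Slc7a6 (y+LAT2, chr8:106168857-106198706, + strand) exchanges cationic for neutral amino acids and needs the CD98 heavy chain. It had 1.46, 3.26 and 4.59 TPM in libraries labelled ErbB4myeKO and 1.31, 2.07 and 3.23 TPM in those labelled ErbB4FF. The difference was 0.40 (SE 0.18, 95% interval -0.01 to 0.81), above 0 in 5 litters and at -0.39 in litter 4, with a limma adjusted p of 0.603. Slc7a7 (y+LAT1, chr14:54369442-54417780, - strand), the exchanger of the same kind that is mutated in lysinuric protein intolerance, had 5.21, 12.7 and 16.0 TPM against 10.4, 15.3 and 16.9 TPM. Its difference of -0.32 (SE 0.22, 95% interval -0.82 to 0.19, limma adjusted p = 0.668) came with ratios below 0 in 3 of 6 litters, and litter 2 alone was at -1.42. The other 11 libraries lay between 10.4 and 16.9 TPM, and the difference was -0.095 without litter 2 and -0.13 with the Y-linked covariate. Slc7a3, Slc7a4, Slc7a9 and Slc7a14, the remaining members of this kind, had means of at most 0.106 TPM.

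The heavy chain and the light chains that carry large neutral amino acids did not differ by genotype past the threshold. Slc3a2 had a difference of 0.13 (SE 0.22, 95% interval -0.37 to 0.63, limma adjusted p = 0.864). Its ratio was above 0 in 5 litters, between 0.19 and 0.80, and at -1.08 in litter 3, where the library labelled ErbB4myeKO had 82.3 TPM and that labelled ErbB4FF 175 TPM. Without litter 3 the difference was 0.37 with a limma p of 0.00887 before and 0.513 after adjustment, and without litter 5 it was -0.01. Slc7a8 had a difference of 0.09 (95% interval -0.18 to 0.37), with 3 litters above 0 and 3 below, and was 0.01 without litter 2 and 0.17 without litter 3. Slc7a5, the light chain LAT1 for leucine and other large neutral amino acids (chr8:121881150-121907694, - strand), had 1.52, 4.24 and 6.96 TPM against 1.02, 3.67 and 4.90 TPM. Its difference was 0.37 (SE 0.22, 95% interval -0.15 to 0.89), and this rested on litters 2 and 6 at 1.26 and 1.01, while the other litters lay between -0.09 and 0.10. Without litter 2 it was 0.20, without litter 6 it was 0.25, and with the Y-linked covariate it was 0.23. Slc43a2, the facilitated carrier LAT4, had 3.13, 7.95 and 13.9 TPM against 5.92, 7.43 and 13.0 TPM and a difference of -0.10 (SE 0.18).

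LAT2 outweighed LAT1 in every library. Slc7a8 was between 10.7 and 50.9 times as high as Slc7a5 in TPM (median 21.9), and it made up between 65.6% and 87.2% of the summed TPM of the CD98 partners Slc7a5, Slc7a6, Slc7a7 and Slc7a8, a sum without Slc7a11, the CD98 partner that the rule leaves out. The ratio of Slc7a8 to Slc7a5 differed between littermates by a mean of -0.35 ± 0.67 on the log2 scale (SD, n = 6, exact permutation p = 0.281). Heavy chain RNA ranged from 0.698 to 1.64 times that sum (median 1.4), and this ratio showed no difference by genotype past the threshold either (exact permutation p = 0.750). Slc3a1, the heavy chain of the kidney and gut carriers, reached at most 0.373 TPM.

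**Figure D3:**
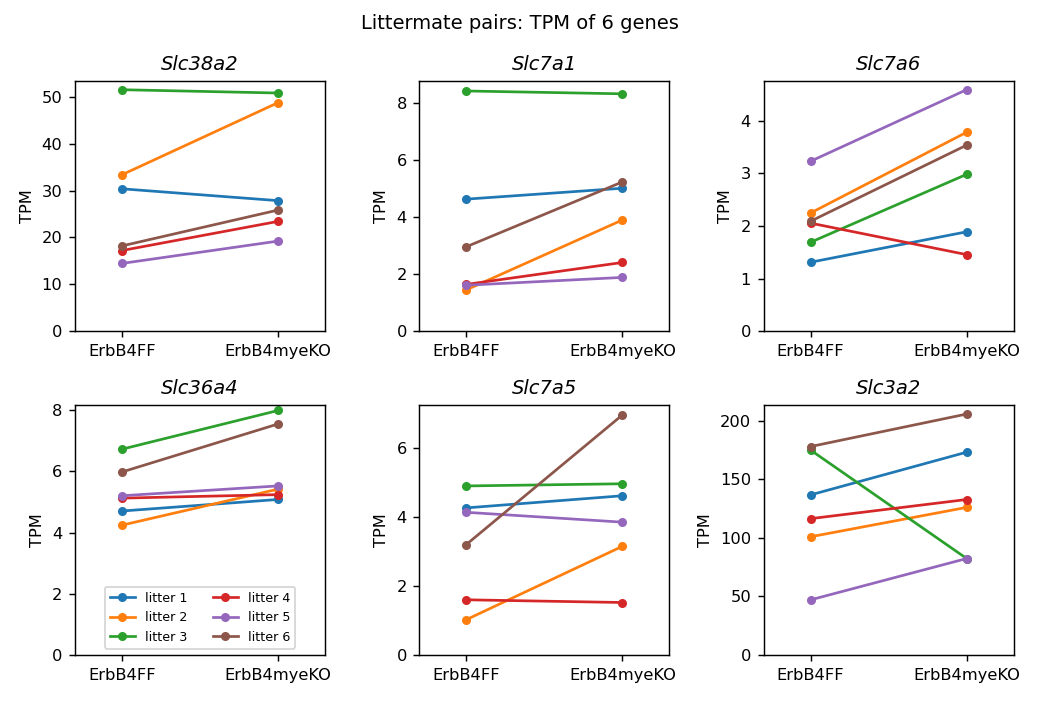
TPM of Slc38a2, Slc7a1, Slc7a6, Slc36a4, Slc7a5 and Slc3a2 in the 6 littermate pairs, with ErbB4FF on the left and ErbB4myeKO on the right of each panel and 1 coloured line per litter. The 6 lines of Slc36a4 all end a little higher, and the line of litter 3 runs down in Slc3a2 from 175 to 82.3 TPM while the other 5 run up.

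Slc36a4 (PAT4, chr9:15709738-15743361, + strand) belongs to the family that senses and moves small neutral amino acids at lysosomes and at the plasma membrane. It had 5.08, 5.47 and 7.99 TPM in libraries labelled ErbB4myeKO and 4.24, 5.17 and 6.73 TPM in those labelled ErbB4FF. The ratio was 0.10, 0.32, 0.23, 0.03, 0.08 and 0.31 in litters 1 to 6, small in each and above 0 in all 6 as labelled. The exact permutation p of 0.0312 is the smallest that 6 litters can give, and it rests on the labels of litter 6 as on the others: litters 1 to 5 alone can give no exact permutation p below 0.0625. Without litter 6 the difference was 0.15, and over all 6 the fitted difference was 0.18 (SE 0.09, 95% interval -0.04 to 0.40, 1.13-fold, limma adjusted p = 0.617). Slc36a1 (PAT1), the other proton-coupled carrier expressed, had 2.38, 2.62 and 3.80 TPM against 1.73, 2.70 and 3.60 TPM and a difference of 0.05 (SE 0.15). Slc36a2 and Slc36a3, found mainly in other organs, had means under 0.1 TPM.

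The remaining SLC38 genes at lysosomes and inside the cell lay near 0 in their difference. Slc38a7, which moves glutamine and asparagine out of lysosomes, had 9.44, 10.2 and 16.8 TPM against 7.10, 10.7 and 18.3 TPM and a difference of 0.05 (SE 0.12). Slc38a9, the lysosomal arginine sensor of mTORC1, had 0.818, 1.10 and 1.22 TPM against 0.576, 1.28 and 1.55 TPM and a difference of -0.12 (SE 0.18), and Slc38a6 had a difference of -0.10 (SE 0.09). Slc7a6os had 7.01, 8.95 and 12.0 TPM against 6.47, 9.19 and 13.6 TPM and a difference of -0.01 (SE 0.12). Slc43a3 had a difference of -0.25 (SE 0.19, 95% interval -0.69 to 0.19), which was -0.099 without litter 6 and -0.058 with the Y-linked covariate.

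Of the 21 SLC6 members, 4 passed the filter, all of them carriers of taurine, creatine, betaine or GABA, compounds that are not built into proteins. Slc6a6 had a difference of -0.11 (SE 0.08, 95% interval -0.30 to 0.08, limma adjusted p = 0.697) and was lower with the ErbB4myeKO label in 5 of 6 litters. It was -0.059 without litter 2, -0.17 without litter 5 and -0.063 with the Y-linked covariate. Slc6a8, the creatine transporter, had 2.72, 7.32 and 12.4 TPM against 3.35, 8.41 and 9.16 TPM and the widest interval of the group, -0.66 to 0.57. Slc6a12 and Slc6a13, neighbours on chromosome 6 that carry betaine and GABA, were at 0.543, 0.879 and 2.90 TPM against 0.154, 1.05 and 1.34 TPM, and at 0.469, 0.698 and 2.99 TPM against 0.291, 0.901 and 2.11 TPM. The highest library of both genes was that of litter 5 labelled ErbB4myeKO.

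The other 42 members stayed under a mean of 1 TPM and were not tested. Of these, 12 were listed at 0 in all 12 libraries, among them Slc1a7, of the family that carries glutamate and aspartate. A further 9 were above 0 somewhere and under 0.1 TPM everywhere, and 4 passed 1 TPM in at least 1 library. Slc6a9, the glycine transporter GLYT1, did so in 7 libraries and ranged from 0 to 1.74 TPM. Slc1a5, the glutamine carrier ASCT2, did so in 5 libraries. In litters 1 to 6 Slc1a5 had 2.67, 0.0689, 0.921, 1.56e-07, 0.389 and 0 TPM with the ErbB4myeKO label and 1.89, 1.13, 1.24, 0.0462, 0 and 1.84 TPM with the ErbB4FF label. Only 1 of 8 annotated transcripts of Slc1a5 is a principal transcript in the table, and for Slc38a10 it was 1 of 16, so these low values cover that transcript and not the whole gene. No SLC1 member, of 7, had a mean of 1 TPM, whereas 6 of 14 SLC7 members and 5 of 11 SLC38 members did.

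For 6 of the 20 tested genes the level is a sum over several principal transcripts, and in each of the 6 the mean log2 ratios of the transcripts lay on both sides of 0. The ratios were close to 0 in Slc36a1 (between -0.03 and 0.17) and lay between -0.34 and 0.24 in Slc38a1. Slc38a7 had 0.0248 TPM of ENSMUST00000040481 and 10.1 TPM of ENSMUST00000212270 in the litter 3 library labelled ErbB4myeKO, and 18.3 and 0.0438 TPM in the litter 6 library labelled ErbB4FF. These transcripts share 98.7% and 99.1% of their 31-base words with other transcripts of the gene, so the split of reads between them is uncertain. In Slc6a8, ENSMUST00000114465 had a mean log2 ratio of -0.98 and ENSMUST00000114467 of 1.49, with 100% and 99.1% of words shared, and the sum gave -0.05. Slc7a7 had -0.99 for ENSMUST00000226753 and 0.30, 0.41 and 0.64 for its other 3 transcripts, beside -0.32 for the sum, and Slc43a2 had 0.56, -0.88 and -0.37 for its 3 transcripts. The differences given for these 6 genes are those of the sum. The other 14 tested genes, among them Slc38a2, Slc7a1, Slc7a6, Slc36a4, Slc3a2 and Slc6a6, have 1 transcript in the table. Their reads can still be split with annotated transcripts outside the table. Slc3a2 has 1 of 9 annotated transcripts in the table and shares 93.1% of its words with other transcripts of the gene. Slc7a6 shares 76.4% and Slc7a6os 95.4%, whereas Slc6a6 shares 28.5% and Slc36a4 26.5%. Whether this has a part in their values was not tested.

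**Figure D4:**
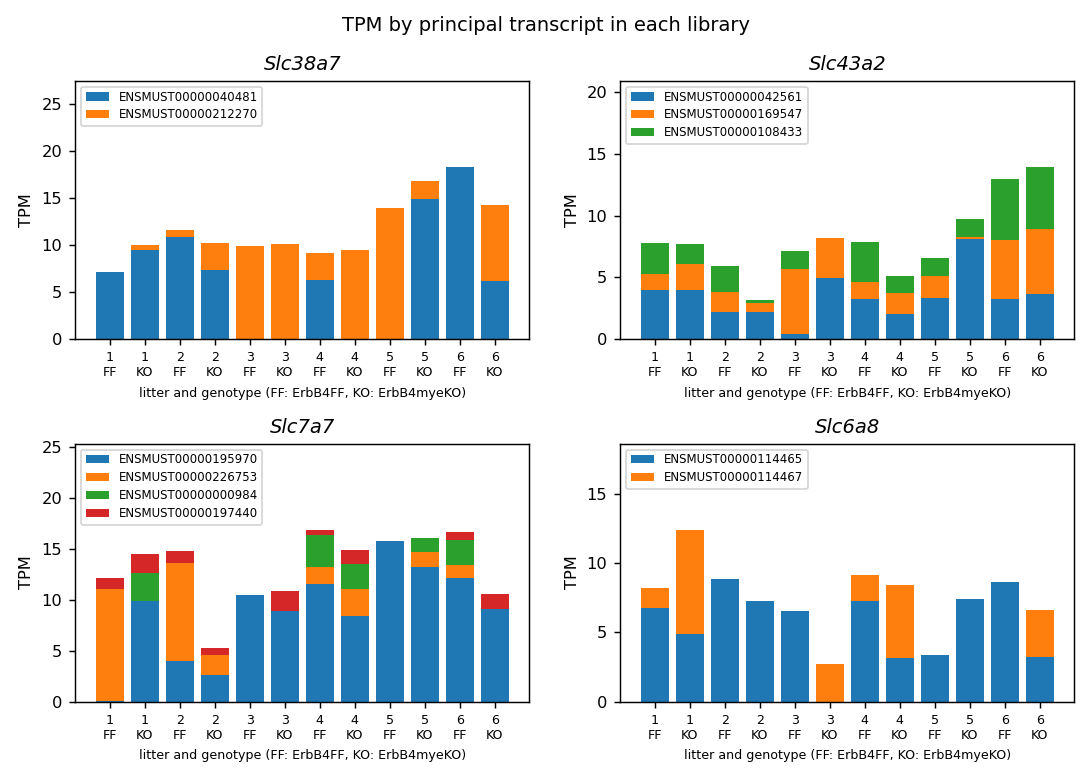
Stacked TPM of the principal transcripts of Slc38a7, Slc43a2, Slc7a7 and Slc6a8 in each of the 12 libraries, ordered by litter with ErbB4FF (FF) before ErbB4myeKO (KO). The colours trade places between libraries, as in Slc38a7, where 0.0248 and 10.1 TPM stand in 1 library and 18.3 and 0.0438 TPM in another.

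Litter held a larger share of the spread of the transporters than genotype did. Of the sum of squares of log2 values, litter held a median of 78.7% over the 20 members, genotype 2.30% and the residual 16.7%. In all 8780 genes these medians were 78.1%, 2.49% and 16.2%, so the transporters stood where other genes did. With no effect of litter its share would be 45.5% from its degrees of freedom. The share was highest for Slc6a6 (92.0%) and lowest for Slc7a7 (44.7%), and 19 of 20 members were over 50% (86.4% of all genes). With all 6 litters as labelled, the share of genotype was largest for Slc7a6 (19.4%), Slc36a4 (14.0%) and Slc7a7 (13.2%). This order rests on the labels of litter 6 too, and shares without litter 6 were not computed. Litter means differed by 3.95-fold in Slc7a1 and 3.01-fold in Slc38a2, highest in litter 3 and lowest in litter 5 for both, by 3.06-fold in Slc3a2 (litter 6 against litter 5) and by 1.48-fold in Slc36a4. A batch that went with litter cannot be told apart from litter.

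**Figure D5:**
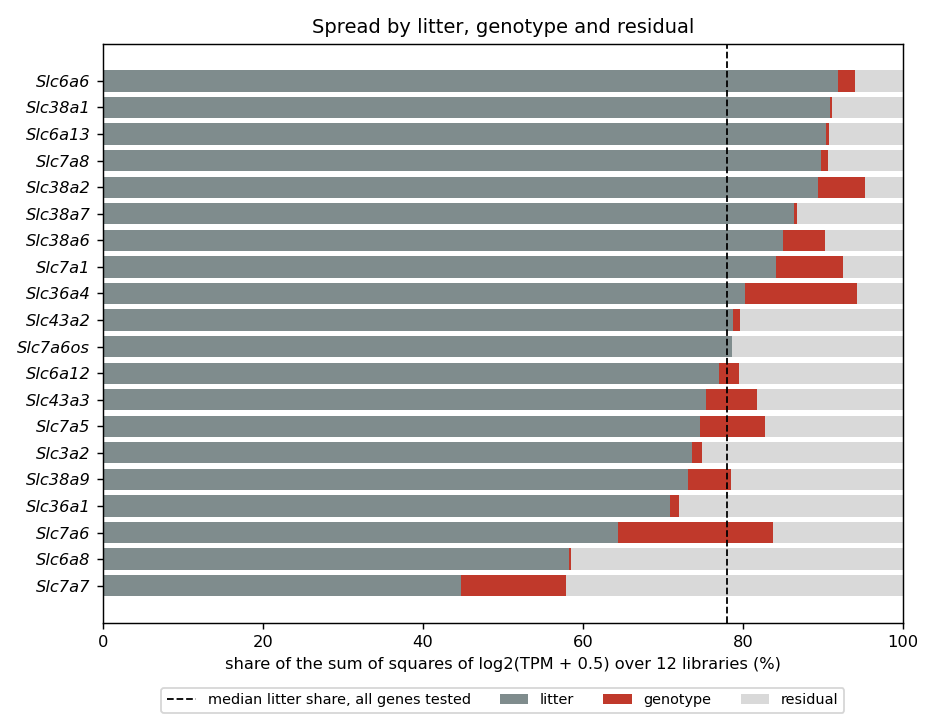
Share of the sum of squares of log2(TPM + 0.5) held by litter (dark grey), genotype (red) and residual (light grey) for the 20 members, in percent, with a dashed line at the median litter share of all genes tested (78.1%). Litter takes the greater part in 19 of 20 members, from 92.0% in Slc6a6 down to 58.3% in Slc6a8, and 44.7% in Slc7a7.

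The direction was mixed within litters. With the ErbB4myeKO label 11, 8, 11, 10, 16 and 14 of 20 members were higher in litters 1 to 6, and the median ratio was 0.08, -0.05, 0.02, -0.01, 0.20 and 0.09, beside medians of all genes between -0.02 and 0.02. Litter 5 had the most members higher and is also the litter whose principal transcripts held the largest part of all TPM.

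Other genes of amino acid supply and use were counted in 5 lists, together 96 genes, of which 73 were tested. The list of other carriers also held Slc2a1, a glucose transporter. None passed the adjusted threshold (limma), and 5 had an unadjusted p under 0.05, which is 6.85% of those tested beside 8.21% of all genes. Of 10 mitochondrial carriers tested of 13, 4 were above 0 and 6 below (median -0.04), and of 8 other carriers tested of 10, 4 were on each side. The mTORC1 and amino acid sensing list had 12 of 22 above 0 (median 0.03), and no gene of these 3 lists had a p under 0.05. Of 15 genes tested of 19 in the ATF4 pathway list, which holds Atf4, its upstream kinase Eif2ak4 and target genes, 8 were above 0 (median 0.02), with Asns and Nupr1 under 0.05 in opposite directions. Asns, which makes asparagine, had 22.3 ± 16.0 against 16.2 ± 12.1 TPM and a difference of 0.50 (SE 0.18, limma adjusted p = 0.603), above 0 in 5 of 6 litters. Nupr1, a stress-induced chromatin protein, had a difference of -0.40 (SE 0.10, limma adjusted p = 0.603) and was lower in all 6. In the list of amino acid metabolism, 10 of 18 were above 0 (median 0.05). Gclc and Gclm, the subunits of the enzyme that starts glutathione synthesis from glutamate and cysteine, had differences of 0.68 and 0.56, above 0 in 5 and 6 litters, and Glul, which makes glutamine, had -0.30, below 0 in 5 litters, all with a limma adjusted p of 0.603. Without litter 6 the number of these genes with an unadjusted limma p under 0.05 was 2, Nupr1 (-0.44) and Gclm (0.61). Asns, Slc7a1 and Slc38a2 shared litter 3 as the litter of their highest library in both groups.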

How the data were processed

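Each library is polyA RNA of 1 culture of M1-activated BM-Mɸs, sequenced as single-ended reads of 75 bases from a stranded kit. The authors quantified reads with kallisto and deposited TPM per principal transcript, and deposited with them sleuth's average of natural log counts per transcript, which gave the geometric mean counts in the supporting tables. The submitters' processing notes name kallisto, sleuth, CASAVA and mm10, and versions are not given in the sources used here. The authors' p-values, q-values and ratios in the same table were not used. Read depth is not in TPM, so precision rests on the spread between litters.

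Repeated lines (405 of 29213) were dropped and TPM were summed per gene. The 8780 genes that averaged 1 TPM or more entered, as log2(TPM + 0.5), a limma 3.58.1 fit in R 4.3.3 (lmFit and a trended eBayes), with genotype and with litter as a block, as the study's own model also had litter. It had sex too, which the labels do not give. Adjusted p-values are Benjamini-Hochberg over all 8780 genes. The pairing comes from the litter number on the labels, and littermates correlated at 0.273 to 0.774 after each gene's mean was taken away. Exact permutation tests (two-sided) exchanged the genotypes of littermates in all 64 ways, which can give no p below 0.0312. Fold changes on the log2(TPM + 0.5) scale understate those of low genes. Values of the log2 fold change are ErbB4myeKO minus ErbB4FF.

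All 62 members matched GENCODE M21 (GRCm38), from which positions, transcript counts and shared 31-base words came. Promoter windows are those of RefSeq. Medians and counts over the members stand in for tests of the list. Python 3.11.15 (numpy 2.4.6, pandas 2.3.3, matplotlib 3.10.9) was used for the rest. On simulated TPM of 8780 genes with 200 changed, the fit found 74% of the genes set to differ by 1 and 91% of those set to differ by 2 on the log2 scale, with 11 false among 176 calls. The members' fitted differences were at most 0.44 in size. No change that small was simulated, so these rates do not tell how often one would be found.

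The members, lists and tests were chosen with earlier results of these data known. The rule for genes named with values was the 10 members with the highest mean, those with an unadjusted p under 0.05 and those that went the same way in 6 litters, and of the other lists those with an unadjusted p under 0.05. Values of Slc7a5, Slc7a6, Slc36a1, Slc38a9, Slc6a12, Slc6a13, Slc43a3, Slc38a6, Slc1a5 and Slc6a9 fall outside that rule and were chosen after they were seen. Alternatives were no block, 0.1 or 1 TPM as the pseudocount, every gene above 0 or those averaging 5 TPM or more, median-ratio scaling, limma without trend, the transcript with the highest mean alone, the summed TPM of 4 Y-linked genes as a covariate in place of sex, and each litter left out. Their effect is given with the limits.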

Additional observations from a re-analysis of the deposited data

Results flagged for a closer look

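Of 40 groups of 6 libraries (the 20 tested members in each genotype), 4 held a library that stood apart from the other 5 by Dixon's criterion, and chance alone marks about 1 group in 20. Slc43a2 was highest in the litter 6 library labelled ErbB4FF at 13.0 TPM, where the next was 7.82 TPM. Slc38a9 was lowest in the litter 3 library labelled ErbB4FF at 0.576 TPM, where the next was 1.19 TPM. In the litter 5 library labelled ErbB4myeKO, Slc6a13 had 2.99 TPM with the next at 1.36 TPM, and Slc6a12 had 2.90 TPM with the next at 1.16 TPM. These 2 genes are neighbours on chromosome 6, and litter 5 is the litter whose principal transcripts held the largest part of all TPM.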

How the results depend on the processing

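No member passed the adjusted threshold under any alternative run. The number of members with an unadjusted p under 0.05 was 2 with litter as a block and 0 with no replicate block, 3 with a pseudocount of 1 and 3 without trend, 1 with a mean of at least 5 TPM, 0 with the Y-linked covariate and 0 to 3 with each litter left out. Over all genes it was 721 with the block, 75 with no replicate block, 297 with the covariate and 410 to 860 without 1 litter. For the other amino acid genes it was 5, then 0 with no replicate block, 8 with no filter, 3 with the covariate and 2 to 8 without 1 litter. Adjusted calls over all genes were 0 to 1 without 1 litter, the 1 call coming without litter 3. Of 25 named genes, 14 kept their direction in all settings. The covariate turned the difference of Slc7a8 to -0.013, Slc38a1 to -0.0064, Slc43a2 to 0.011, Slc6a8 to 0.15 and Slc6a12 to -0.0085. The highest transcript alone turned Slc43a2 to 0.56, Slc7a7 to 0.41, Slc38a7 to -0.074 and Slc36a1 to -0.029. Leaving out a litter turned 8 genes, with ranges of -0.0052 to 0.37 for Slc3a2, -0.015 to 0.10 for Slc38a1, -0.036 to 0.13 for Slc38a7, -0.10 to 0.062 for Slc7a6os, -0.22 to 0.047 for Slc43a2, -0.26 to 0.17 for Slc6a8, -0.011 to 0.14 for Slc36a1 and -0.031 to 0.17 for Slc6a13. Slc38a2 stayed between 0.24 and 0.37, Slc7a1 between 0.29 and 0.53 and Slc36a4 between 0.15 and 0.21 without 1 litter, and with the covariate they were 0.13, 0.28 and 0.16. Other ranges without 1 litter were -0.17 to -0.059 for Slc6a6, 0.01 to 0.17 for Slc7a8, -0.43 to -0.095 for Slc7a7, -0.34 to -0.099 for Slc43a3, -0.20 to -0.048 for Slc38a9, -0.14 to -0.062 for Slc38a6, 0.03 to 0.33 for Slc6a12, 0.33 to 0.63 for Asns, 0.34 to 0.65 for Gclm, 0.45 to 0.83 for Gclc, -0.38 to -0.23 for Glul and -0.47 to -0.34 for Nupr1. The covariate also moved Slc7a6os to -0.18 and Slc38a7 to 0.22. Leaving out litter 6, in which Lyz2 ran against the labels of the other litters, was singled out after the data were seen. The cause of these shifts was not tested. TPM keep no read depth by library. The authors' average counts give geometric means of 14.0 for Slc6a12, 12.1 for Slc6a13 and 63.2 for Slc38a9. Values of the first 2 thus rest on few reads, and the counting error in each library is unknown.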
